A study of Mus musculus with 4 samples.

Results

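The genes described here make, carry and read retinoic acid in cells sorted from mouse adipose tissue. They were chosen by their role in the pathway, with earlier results of these data known, and comprise Rdh10, Aldh1a1, Aldh1a2 and Aldh1a3 for synthesis, Crabp1 and Crabp2 for binding, and Rara, Rarb and Rarg as receptors. The 9 genes, of 19057 on the array, had 16 of the 45281 probes of Illumina Mouse-6 V2 BeadChip arrays. Of these, 9 probes of 6 genes were detected on at least 1 of the 4 arrays (detection p under 0.01) and were tested, and 6 probes were detected on all 4. The other 7 probes, which included every probe of Aldh1a2, Rara and Rdh10, were not tested.

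The labels name 2 libraries of null GFP+ cells (numbers 1 and 3), 1 library of het GFP+ cells (number 2) and 1 library of null GFP− cells (number 3), where null and het refer to Pparg, the master regulator of fat cell formation. All mice were 2 months old. The labels call the strain Black 6, while the methods of the study describe a mixed C57BL/6-129/SV background. In the study's control AdipoTrak mice, tTA inserted at the Pparg locus (PPARγ tTA) switches on TRE-H2B-GFP, so that GFP marks cells in which the Pparg locus is or was active, and TRE-Cre. For the deletion, the text on the arrays names the AT-PPARγ-LOF strain, which combines a floxed allele (PPARγ f/tTA) with TRE-Cre, expressed where tTA is, and carries TRE-H2B-GFP too. The methods instead name Sox-PPARγ-LOF, with Sox2-Cre in place of TRE-Cre on the same PPARγ f/tTA genotype and GFP reporter, in which deletion is not limited to the fat lineage. Which of them gave these cells, and which alleles the het mice carried, is not in the labels. The cells were live stromal vascular cells sorted by fluorescence, and nothing in the labels says which libraries came from separate mice. The p-values therefore measure only the spread between the 2 null GFP+ libraries, moderated over all tested probes, and that spread may be technical.

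Pparg, the targeted gene, ran against the genotype labels. Its intensity was 3217 and 2479 in the null-labelled GFP+ libraries, 188 in the het-labelled GFP+ library and 209 in the null-labelled GFP− library (log2 difference from the het-labelled GFP+ library 4.84, limma adjusted p = 0.00926). The het-labelled GFP+ library thus read no higher than the null-labelled GFP− library, although GFP marks activity of the Pparg locus. Every direction below is therefore by label only. The neutrophil, mast cell and adipocyte marker lists followed neither the genotype nor the gate label alone. They set the null-labelled GFP+ libraries apart from the het-labelled GFP+ and null-labelled GFP− libraries, which had similar sums of these lists but not of all lists. The 5 tested neutrophil markers were all lower in the null-labelled GFP+ libraries, with summed intensities of 622 and 648 there, 24702 in the het-labelled GFP+ library and 25401 in the null-labelled GFP− library. All 5 tested mast cell markers were lower in the same way (787 and 677, against 64782 and 65323), while 4 of 6 adipocyte markers were higher (6693 and 14447, against 813 and 761). Of 9 tested progenitor and stroma markers, 1 was lower and 0 were higher in both comparisons, and their sums were 167770 and 183296 in the null-labelled GFP+ libraries, 213384 in the het-labelled GFP+ library and 217169 in the null-labelled GFP− library. All 9 of these stromal markers were above background in all 4 libraries. Skeletal muscle sums were 551 and 595 in the null-labelled GFP+ libraries, 2529 in the het-labelled GFP+ library and 696 in the null-labelled GFP− library. Of 4 tested skeletal muscle markers, 3 were lower against het GFP+ and 0 against null GFP−. Mural sums were 4651 and 8266, 3288 and 7098 in the same order of libraries.

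Retinol, or vitamin A, is oxidised to retinaldehyde by alcohol and retinol dehydrogenases, of which Rdh10 is the main enzyme of the embryo, and retinaldehyde is oxidised irreversibly to retinoic acid by Aldh1a1, Aldh1a2 and Aldh1a3. Crabp1 and Crabp2 hold retinoic acid in the cytoplasm, and Crabp2 delivers it to the nucleus. There it binds the receptors Rara, Rarb and Rarg, which sit on DNA with retinoid X receptors at repeated hexamers. Adipose tissue stores retinol, Aldh1a1 is known as a retinaldehyde dehydrogenase of fat, and retinoic acid holds back the early steps of fat cell differentiation in culture.

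Rarb is the textbook example of a receptor gene that is itself a target of retinoic acid, through a repeat of 2 hexamers 5 bases apart (DR5) just upstream of its start. Its promoter is shown because it holds that element, and that of Crabp1 because Crabp1 was the member with the largest fitted difference upward and its window held no hexamer. Both are from RefSeq (GRCm38.p6), run 5′ to 3′ on the strand of the gene, and cover 250 bases before to 50 bases after the start. The Rarb window is chr14:16575427-16575726 on the minus strand, and that of Crabp1 is chr9:54764498-54764797 on the plus strand. Capitals mark the DR5 element.
Rarb: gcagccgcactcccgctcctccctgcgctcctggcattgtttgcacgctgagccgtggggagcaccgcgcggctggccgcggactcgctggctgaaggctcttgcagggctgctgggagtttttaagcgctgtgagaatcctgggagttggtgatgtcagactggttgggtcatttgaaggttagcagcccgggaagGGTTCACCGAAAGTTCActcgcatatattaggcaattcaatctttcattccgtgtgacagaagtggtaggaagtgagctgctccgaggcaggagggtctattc
Crabp1: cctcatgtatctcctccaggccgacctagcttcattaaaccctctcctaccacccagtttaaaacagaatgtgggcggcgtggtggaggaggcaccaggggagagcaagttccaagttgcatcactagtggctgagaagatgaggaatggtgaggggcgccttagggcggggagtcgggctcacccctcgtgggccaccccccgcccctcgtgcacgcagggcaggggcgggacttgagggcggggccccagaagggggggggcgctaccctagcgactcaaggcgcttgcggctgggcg
The hexamer searched on both strands was AGGTCA, together with 3 close forms of it, which were AGTTCA for the first of them, GGGTCA for the second and GGTTCA for the last. The Rarb window held 3 of them, of which 2 form the element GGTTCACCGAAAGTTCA at positions -53 to -37. Of 32851 promoter windows of the same length, 43.7% held at least 1 hexamer and 0.0974% held a DR5 element of these hexamers. Promoter sequences were matched for 6 of the 9 members. A hexamer was held by 1 of 2 windows of Aldh1a1, 2 of 4 of Rara and 1 of 2 of Rarg, and by 0 of 1 of Aldh1a2. A match is a description of letters, and the arrays measured no binding.

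Of the 9 tested probes, 1 was lower and 0 were higher in the null-labelled GFP+ libraries in each comparison. Over all 17379 probes tested, 2.44% were lower and 1.09% higher against het GFP+, and 2.4% lower and 1.08% higher against null GFP−. Since the arrays read bulk RNA, fewer cells of a type and less RNA per cell cannot be told apart.

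Among the enzymes, Aldh1a3 was the member that passed the test. Its probe ILMN_2761436, on the RefSeq transcript, had intensities of 189 and 160 in the null-labelled GFP+ libraries, 450 in the het-labelled GFP+ library and 552 in the null-labelled GFP− library. Both null-labelled GFP+ libraries lay close to the limit of 154 for a signal well above background, and the other libraries lay clearly above them. The log2 difference was -2.14 (SE 0.34, 95% interval -3.0 to -1.29) for null GFP+ minus het GFP+, or 4.42-fold lower (limma adjusted p = 0.043). Against null GFP− it was -2.51 (SE 0.34), or 5.69-fold lower (limma adjusted p = 0.0306). Without the filter on dim probes the adjusted p was 0.149 against het GFP+ and 0.117 against null GFP−, so that the call was lost, and over 9 alternatives it ran from 0.0115 to 0.655 and from 0.00542 to 0.668 and passed in 7 of them in each comparison.

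A second Aldh1a3 probe, ILMN_1237578, gave the same direction with more spread. It is annotated to a clone entry and not to the RefSeq transcript. It read 671 and 334 in the null-labelled GFP+ libraries, 2389 in the het-labelled GFP+ library and 2288 in the null-labelled GFP− library. The null-labelled GFP+ libraries differed 2.01-fold from each other, and both were well below the other libraries. The log2 difference was -2.62 (SE 0.56, 95% interval -4.05 to -1.19; limma adjusted p = 0.0953) for null GFP+ minus het GFP+ and -2.56 (SE 0.56; limma adjusted p = 0.099) for null GFP+ minus null GFP−, and did not pass in either. It was 9.53-fold lower than in the het-labelled GFP+ library without null GFP+ library 1, and 3.97-fold lower without null GFP+ library 3. This probe passed in 4 of 9 alternatives against het GFP+ and in 3 of 9 against null GFP−. The third Aldh1a3 probe, ILMN_1235590, also on a clone entry, was not detected (113 and 104 in the null-labelled GFP+ libraries, 102 in het GFP+ and 109 in null GFP−). Thus 1 of the 3 probes of this gene gave no signal above background.

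Aldh1a1 was detected on every array but did not pass the test. Its intensities were 442 and 583 in the null-labelled GFP+ libraries, 652 in the het-labelled GFP+ library and 630 in the null-labelled GFP− library. The null-labelled GFP+ libraries were the lower ones, by an amount of the same order as the gap between them. The log2 difference was -0.43 (SE 0.33, 95% interval -1.28 to 0.41; limma adjusted p = 0.616) against het GFP+ and -0.38 (95% interval -1.22 to 0.47; limma adjusted p = 0.719) against null GFP−, so that a difference of up to 1.28 on the log2 scale lay inside the interval.

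Aldh1a2 and Rdh10 gave signals near background in every library. The Aldh1a2 probe ILMN_2630749 read 121 and 120 in the null-labelled GFP+ libraries, 126 in het GFP+ and 143 in null GFP−, and Rdh10 read 140 and 131, 131 and 136 in the same order. Over the 7 untested probes the intensities ran from 102 to 145, below the limit of 154 everywhere. Nothing can be said from these probes of differences between the groups at this signal.

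**Figure D1:**
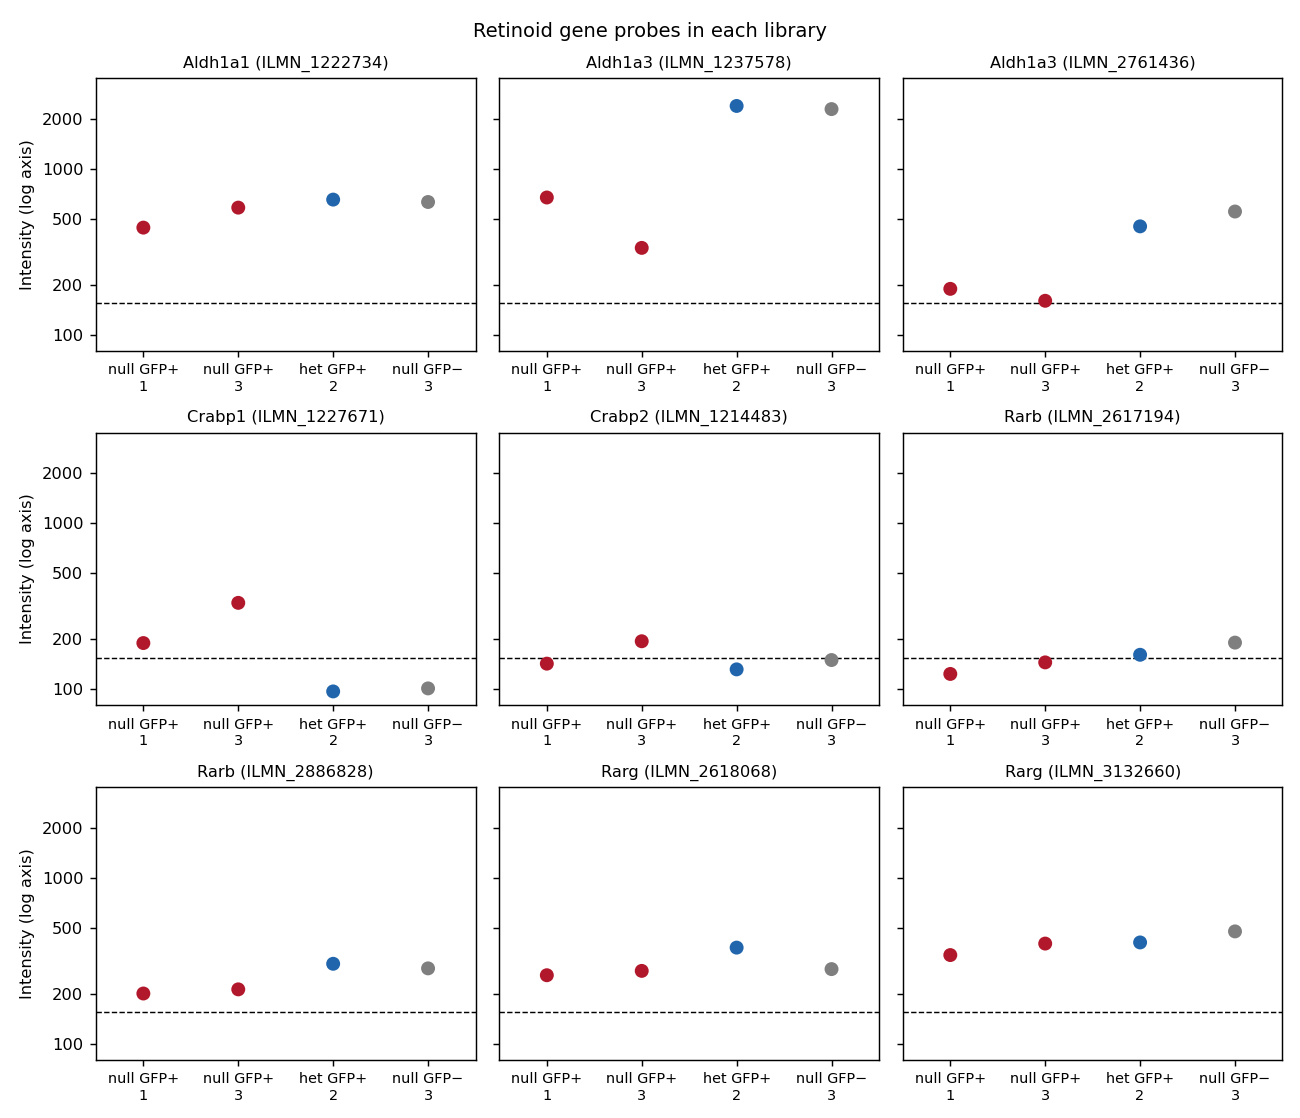
Intensity of each of the 9 tested retinoid probes (log axis) in the 2 null-labelled GFP+ libraries (red), the het-labelled GFP+ library (blue) and the null-labelled GFP− library (grey), 1 point per library. The dashed line is the signal of 154 that marks a probe well above background. Both Aldh1a3 probes sit lower in red than elsewhere, and Crabp1 is above the line in the red libraries only.

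Of the binding proteins, Crabp1 was well above background in the null-labelled GFP+ libraries only, and Crabp2 was under the background limit in 3 of the 4 libraries. Crabp1 (ILMN_1227671) had intensities of 190 and 331 in the null-labelled GFP+ libraries, 96.9 in the het-labelled GFP+ library and 101 in the null-labelled GFP− library. The groups did not overlap, and the 2 null-labelled GFP+ libraries differed 1.75-fold. Since the other libraries were not well above background, Crabp1 was, on the background-corrected scale, at least 2.46-fold higher in the null-labelled GFP+ libraries than in either. A fold given as a lower bound here holds on that scale only, since the correction widens ratios of dim probes, and the uncorrected intensities of Crabp1 differed 2.59-fold from het GFP+ and 2.48-fold from null GFP−. The fitted log2 difference was 2.69 (SE 0.57, 95% interval 1.23 to 4.15; limma adjusted p = 0.0932) against het GFP+ and 2.63 (SE 0.57; limma adjusted p = 0.0972) against null GFP−, and passed in neither. Without null GFP+ library 3 the lower bound was 1.57-fold, and without null GFP+ library 1 it was 3.86-fold. The fit passed in 2 of 9 alternatives against het GFP+ (adjusted p from 0.0383 to 0.716) and in 1 of 9 against null GFP− (0.0476 to 0.743). The summed adipocyte markers also differed between the null-labelled GFP+ libraries in this order, with 6693 in library 1 and 14447 in library 3. So did the mural sums (4651 and 8266) and the epithelium and keratinocyte sums (239 and 395). The other lists differed less, and some, such as endothelium (8705 and 7493), in the other order. The part of these lists in the Crabp1 values was not tested.

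Crabp2 (ILMN_1214483) read 142 and 194 in the null-labelled GFP+ libraries, 132 in the het-labelled GFP+ library and 150 in the null-labelled GFP− library. Only null GFP+ library 3 was well above background. The log2 difference was 0.82 (SE 0.48; limma adjusted p = 0.5) against het GFP+ and 0.32 (SE 0.48; limma adjusted p = 0.857) against null GFP−, and without null GFP+ library 3 the difference from null GFP− was -0.19.

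The receptors were measured at modest signals, and none of their probes passed the test. Rarb was read by 2 tested probes, both on the same RefSeq transcript. ILMN_2886828 had intensities of 200.5 and 212 in the null-labelled GFP+ libraries, 303 in the het-labelled GFP+ library and 284 in the null-labelled GFP− library. The null-labelled GFP+ libraries lay close together and below the other libraries. The log2 difference was -0.89 (SE 0.28; limma adjusted p = 0.223) against het GFP+ and -0.75 (SE 0.28; limma adjusted p = 0.302) against null GFP−. ILMN_2617194 read 124 and 145 in the null-labelled GFP+ libraries, 161 in het GFP+ and 191 in null GFP−. It did not exceed the background limit in the null-labelled GFP+ libraries and was lower there by at least 1.11-fold and 1.59-fold on the corrected scale, and by 1.2-fold and 1.43-fold in uncorrected intensity. The limma adjusted p was 0.454 against het GFP+ and 0.2 against null GFP−. Both Rarb probes therefore had the same direction, and the third, ILMN_1246864, was not detected (122 and 134, against 109 and 117).

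Rarg, the receptor best known from skin, differed between its 2 tested probes. ILMN_2618068 read 258 and 274 in the null-labelled GFP+ libraries, 379 in the het-labelled GFP+ library and 281 in the null-labelled GFP− library, so that the het-labelled GFP+ library stood apart. Its log2 difference was -0.72 (SE 0.28; limma adjusted p = 0.31) against het GFP+ and -0.12 (SE 0.28; limma adjusted p = 0.92) against null GFP−. ILMN_3132660 read 342 and 401 in the null-labelled GFP+ libraries, 407 in het GFP+ and 475 in null GFP−, with log2 differences of -0.18 (limma adjusted p = 0.836) and -0.46 (limma adjusted p = 0.592). The highest library was thus het GFP+ for one probe and null GFP− for the other, on the same RefSeq transcript. Rara, the most widely expressed receptor of the family, was not detected by its probe (122 and 133 in the null-labelled GFP+ libraries, 135 in het GFP+ and 125 in null GFP−).

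**Figure D2:**
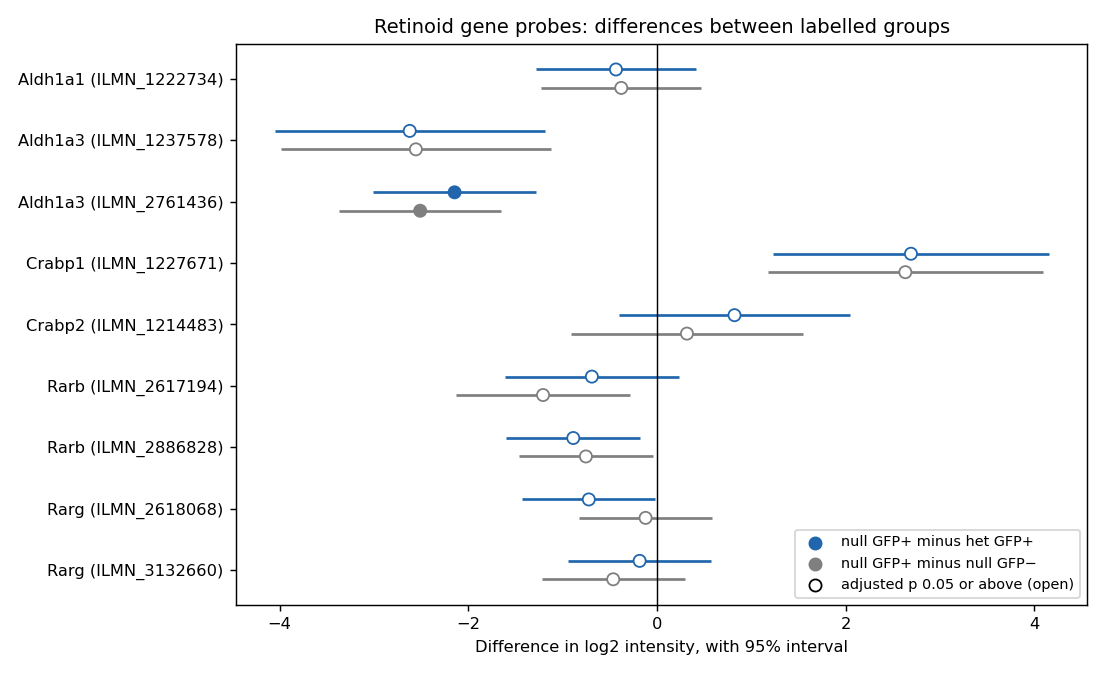
Difference in log2 intensity of each tested retinoid probe, with its 95% interval from limma, for null GFP+ minus het GFP+ (blue) and null GFP+ minus null GFP− (grey). Filled points have an adjusted p under 0.05, which only the Aldh1a3 probe ILMN_2761436 reached, at -2.14 and -2.51.

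The median log2 difference of the 9 probes was -0.69 against het GFP+, against 0.05 over all tested probes, and -0.46 against null GFP−, against 0.04 over all tested probes. These 9 probes are of 6 genes, and Aldh1a3, Rarb and Rarg each enter with more than 1 probe. The medians of the wider pathway below use 1 probe a gene and are not like these. The het-labelled GFP+ library lay outside the range of the null-labelled GFP+ libraries for 9 of 9 probes, as it did for 75.1% of all tested probes, and the null-labelled GFP− library for 8 of 9, as for 73% of all. The groups hold 2 libraries and 1, and each of the single libraries is assumed to vary like the 2 null-labelled GFP+ libraries.

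The het-labelled GFP+ library and the null-labelled GFP− library could be compared only as values, since each is 1 library. Of the 9 probes, 0 differed more than 2-fold between them, while 3.57% of all tested probes did. The log2 differences for het GFP+ minus null GFP− ran from -0.52 for Rarb ILMN_2617194 to 0.6 for Rarg ILMN_2618068, and those of the brighter Aldh1a3 probe and of Crabp1 were 0.07 and -0.06. The 2 comparisons of null GFP+ share the null-labelled GFP+ libraries, so their agreement is no repeat of the measurement.

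Members whose normalised level spanned at least 1.5 on the log2 scale over the 4 libraries were set against the other genes tested, those with clone or predicted names left out, by the root mean square distance of their centred log2 levels over these 4 libraries. Crabp1 spanned 3.34, and the genes nearest to it were Tbx2, a T-box transcription factor (distance 0.116), and Spon1, an extracellular matrix protein (distance 0.149). Tbx2 had intensities of 208 and 338 in the null-labelled GFP+ libraries, 113 in het GFP+ and 118 in null GFP−. Aldh1a3 was read here by its brighter tested probe, ILMN_1237578, which is not annotated to the RefSeq transcript and did not pass the test. It spanned 3.25, and the nearest genes were Gpr1, a G protein-coupled receptor (distance 0.121), and Ly86, a partner of an immune receptor of B cells and macrophages (distance 0.128). Gpr1 read 325 and 194 in the null-labelled GFP+ libraries, 1168 in het GFP+ and 910 in null GFP−, and Ly86 read 192 and 144, 573 and 500.2 in that order. With 4 libraries such distances describe a shape and no more. Of the tested macrophage and dendritic cell markers, 3 of 5 were lower in the null-labelled GFP+ libraries in both comparisons, with sums of 997 and 827, against 3760 in het GFP+ and 2840 in null GFP−. Another, Zbtb46, was higher against het GFP+. Their part in the Aldh1a3 values, and that of the mast cell and neutrophil markers, was not tested.

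**Figure D3:**
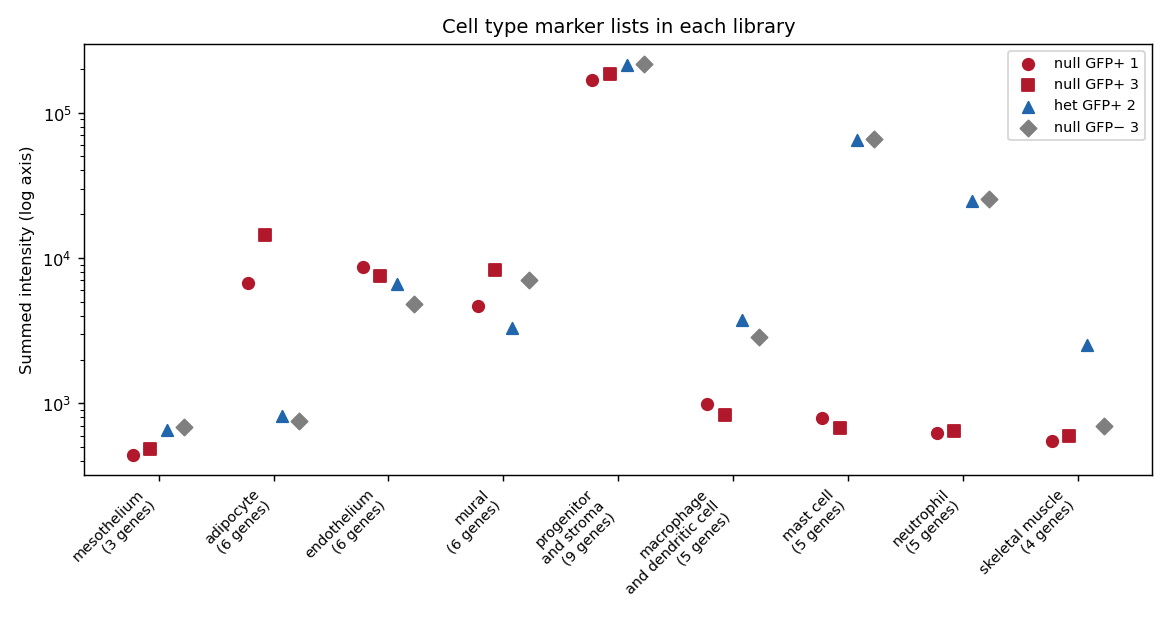
Summed intensity (log axis) of the tested genes of each cell type marker list in the null-labelled GFP+ libraries (red circles and squares), het GFP+ (blue triangles) and null GFP− (grey diamonds), with the number of genes under each list. Mast cell and neutrophil sums are far lower in the null-labelled GFP+ libraries (677 to 787, and 622 to 648), and the adipocyte sums are higher there.

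Mesothelium and epithelium, which can carry retinoid enzymes, were read through their own markers. Of 8 mesothelium markers, 3 were tested and 1 was lower in each comparison, namely Upk3b, a uroplakin (117 and 141 in the null-labelled GFP+ libraries, 375 in het GFP+ and 289 in null GFP−). Krt7 (139 and 185, 120 and 142 in the same order) and Krt19 (186 and 158, 157 and 259) passed in neither. Against het GFP+ both differed in the other direction from Upk3b. Msln, Lrrn4 and Bnc1 were not detected on any array. Of 6 epithelium and keratinocyte markers, Epcam, Cdh1, Krt14 and Krt5 were not detected, and neither of the 2 tested passed. The mesothelium sums were 441 and 484 in the null-labelled GFP+ libraries, 652 in het GFP+ and 690 in null GFP−, and their part in the values of the members was not tested.

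The rest of the pathway was read from 81 further genes, listed by role, of which 72 were on the array and 40 were tested by their brightest probe. Against het GFP+, 1 of the 40 was higher and 1 lower, where 1.31% of all 9975 genes were higher and 2.61% lower. Against null GFP−, 2 were higher and 2 lower, where 1.3% and 2.64% of all genes were. The median log2 difference of the 40 genes was 0.33 against het GFP+ and 0.24 against null GFP−, against 0.05 and 0.02 over all genes. With no filter on dim probes 0 of these genes were called in either comparison.

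Uptake and storage held the largest difference. Rbp7, an intracellular retinol-binding protein of fat and endothelium, read 1124 and 1626 in the null-labelled GFP+ libraries, 146 in the het-labelled GFP+ library and 140 in the null-labelled GFP− library. Only the null-labelled GFP+ libraries were well above background, and on the corrected scale Rbp7 was at least 20.3-fold higher there than in either of the others (limma adjusted p = 0.0103 against het GFP+ and 0.0122 against null GFP−). Its probe entered the test only through the libraries where it was high, so the filter was not independent of the difference. In uncorrected intensity the difference was 9.25-fold from het GFP+ and 9.68-fold from null GFP−, so its size depends on the background correction. The bound was 16.7-fold when null GFP+ library 3 was left out and 24.8-fold when library 1 was, and without the filter the adjusted p was 0.0602 and 0.065 (range over 9 alternatives 0.000768 to 0.622 and 0.00103 to 0.64). A second Rbp7 probe was not detected in any library. Stra6, the membrane receptor for retinol carried by Rbp4, read 181 and 351 in the null-labelled GFP+ libraries, 114 in het GFP+ and 119 in null GFP−, and did not pass (limma adjusted p = 0.174 and 0.19). It was higher by at least 2.45-fold on the corrected scale (1.44-fold when library 3 was left out and 4.18-fold when library 1 was), and by 2.21-fold and 2.11-fold in uncorrected intensity. Lpl, the lipase that also releases retinol from circulating retinyl esters, read 36121 and 40207 against 18742 and 22920 and did not pass (limma adjusted p = 0.168 and 0.316). Of the 6 genes of this list, 1 was higher and 0 were lower in each comparison. Of 6 tested endothelium markers, 4 were higher against het GFP+ and 5 against null GFP−, with sums of 8705 and 7493 in the null-labelled GFP+ libraries, 6640 in het GFP+ and 4801 in null GFP−. Tek, a bright part of these sums, went the other way and did not pass. It read 3061 and 2097 in the null-labelled GFP+ libraries, 5293 in het GFP+ and 3815 in null GFP−. The part of the endothelium and adipocyte markers in the Rbp7 values was not tested.

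Of 11 oxidation genes, 1 passed. Adh1, an alcohol dehydrogenase that oxidises retinol, read 6976 and 7925 in the null-labelled GFP+ libraries, 3040 in the het-labelled GFP+ library and 2336 in the null-labelled GFP− library. Both null-labelled GFP+ libraries lay above the others, and the log2 difference was 1.32 (SE 0.28; limma adjusted p = 0.0952) against het GFP+, which did not pass, and 1.71 (SE 0.28; limma adjusted p = 0.049) against null GFP−, which did. A second Adh1 probe read 5117 and 4699 against 2002 and 1297 (limma adjusted p = 0.0878 and 0.0325). Dhrs7, a short-chain dehydrogenase, read 6194 and 5994 in the null-labelled GFP+ libraries, 6295 in het GFP+ and 5579 in null GFP−, with log2 differences of -0.05 and 0.13.

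Of the 2 genes of retinoic acid breakdown that were tested, 0 passed. Cyp26b1, a cytochrome P450 that clears retinoic acid, read 144 and 163 in the null-labelled GFP+ libraries, 130 in het GFP+ and 139 in null GFP−, at or near background. Cyp2s1 read 328 and 278, against 241 and 227, with log2 differences of 0.49 and 0.63.

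Of 9 receptor partners and coregulators, 1 was lower and 0 were higher in each comparison. Rorb, a retinoic acid receptor-related orphan receptor, read 126 and 112 in the null-labelled GFP+ libraries, 269 in the het-labelled GFP+ library and 218 in the null-labelled GFP− library, and was lower than in het GFP+ (limma adjusted p = 0.0245) and than in null GFP− (limma adjusted p = 0.0425). The size was at least 2.86-fold and 2.03-fold on the corrected scale, and 2.26-fold and 1.83-fold in uncorrected intensity. Its 2 other tested probes, ILMN_1224798 and ILMN_3137520, did not pass against het GFP+ (limma adjusted p = 0.189 and 0.151). Against null GFP− the first of them passed and the second did not (limma adjusted p = 0.0468 and 0.0861). The brightest Rorb probe passed in 7 of 9 alternatives against het GFP+ (0.0136 to 0.627) and in 6 of 9 against null GFP− (0.0326 to 0.66). The retinoid X receptors share DNA sites with the members. Rxra read 171 and 164 in the null-labelled GFP+ libraries, 127 in het GFP+ and 134 in null GFP−, and Rxrg read 156 and 185 against 125 and 135, each above the limit of 154 only in the null-labelled GFP+ libraries and neither past the test (limma adjusted p = 0.174 and 0.215 against het GFP+). Rxrb read 1285 and 1472 against 1216 and 1511, so that the null-labelled GFP+ libraries lay between the others.

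Of 12 target genes, 0 passed against het GFP+ and 1 was lower against null GFP−. Cebpe, a transcription factor of late granulocytes and a retinoic acid target in myeloid cells, read 120 and 121 in the null-labelled GFP+ libraries, 192 in the het-labelled GFP+ library and 198 in the null-labelled GFP− library, and was lower than in null GFP− (limma adjusted p = 0.0454) but did not pass against het GFP+ (limma adjusted p = 0.0516). The size was at least 1.7-fold against null GFP− and 1.6-fold against het GFP+ on the corrected scale, and 1.64-fold and 1.59-fold in uncorrected intensity. Cebpe passed in 3 of 9 alternatives against null GFP− (adjusted p from 0.0343 to 0.602) and in 1 of 9 against het GFP+ (0.0393 to 0.589). A second tested Cebpe probe, ILMN_3029849, was also lower against null GFP− (limma adjusted p = 0.0307) and did not pass against het GFP+ (limma adjusted p = 0.0654). All 5 tested neutrophil markers moved in the same direction as Cebpe, and their part was not tested. Tgm2, a transglutaminase induced by retinoic acid, read 3309 and 7506 in the null-labelled GFP+ libraries, 2239 in het GFP+ and 2239 in null GFP−, with more than a doubling between the null-labelled GFP+ libraries (limma adjusted p = 0.392 and 0.421). Egr1, an immediate early transcription factor, read 37961 and 39868 against 32747 and 35964, with log2 differences of 0.25 and 0.11.

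**Figure D4:**
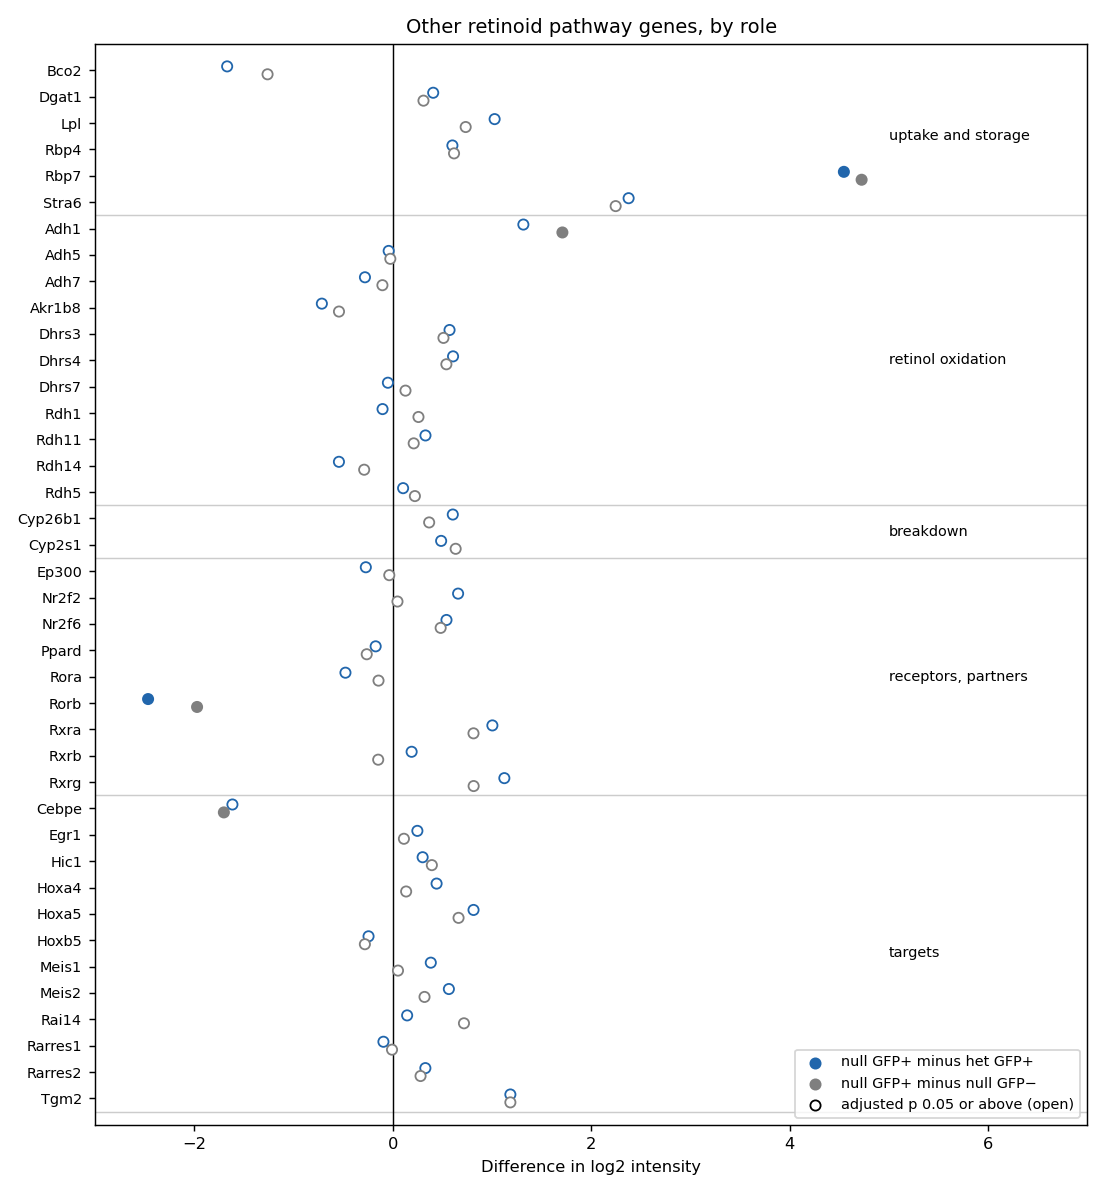
Difference in log2 intensity of the 40 tested genes of the wider pathway, grouped by role, for null GFP+ minus het GFP+ (blue) and null GFP+ minus null GFP− (grey). Filled points have an adjusted p under 0.05, which Rbp7 and Rorb reached in both comparisons and Adh1 and Cebpe reached against null GFP− only.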

How the data were processed

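RNA of flow-sorted mouse adipose cells was extracted with Trizol and RNeasy columns, amplified to biotin-labelled cRNA (Ambion MessageAmp) and hybridized to Illumina Mouse-6 V2 BeadChips. The authors deposited 1 intensity per probe and library on a linear scale. The authors also deposited a second table with detection p-values. Sorted intensities differed by at most 0.38% from their mean across arrays, so they had been normalized, by a method not given in the sources read. Its 4 signal columns carry names found in no label and were left out, and its detection p-values entered only through quantities that are the same whichever column belongs to which library.

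The normexp correction (limma 3.58.1, R 4.3.3) used the shared intensity distribution, matched in rank order to the detection p-values (background mean 108, SD 13.6), with an offset of 16, then log2 and quantile normalization. A probe entered the tests if its detection p was under 0.01 on 1 array or more. Crabp1, Crabp2, Rarb ILMN_2617194, Rbp7, Rorb, Cebpe, Stra6, Rxra, Rxrg and Cyp26b1 entered only through libraries where they read higher. So did several called markers, such as S100a9, Tpsb2, Upk3b and Adipoq. The adjusted p-values of all such probes are not independent of this filter. A gene was read by its brightest tested probe, and 34885 of 45281 probes had 1 gene symbol, 18 several and 10378 none. Symbols were looked up in RefSeq GRCm38.p6 for 34807 probes, and 0 changed. Libraries were compared with limma (lmFit, eBayes) over 3 labelled groups, two-sided, with 1 residual and 4.03 prior degrees of freedom and Benjamini-Hochberg adjustment over 17379 probes, called at an adjusted p under 0.05. Where every array of a group was under a signal of 154, the level at which detection p is 0.01, a fold is a lower bound against that level, or against the probe's own signal where higher, on the normalized log2 scale. Array number and signal over background limit the precision. The fit was tested on simulated data, all of whose libraries had equal spread.

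The members and gene lists were chosen with earlier results of these data known. Named were all tested member probes, wider-list genes called in either comparison, the brightest gene of each list and the nearest genes by pattern. Stra6, Rxra, Rxrg, Cyp26b1 and Tgm2, and the markers named, were added after their values were seen. Alternatives covered background correction, offset, normalization, filter, variance model, the methods' t-test, the libraries normalized together, the probe of a gene and leaving out each null GFP+ library. Figures were drawn with matplotlib 3.10.9.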

Additional observations from a re-analysis of the deposited data

How the results depend on the processing

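Against het GFP+, the number of retinoid probes called, 1 of 9, became 3 with a variance trend, 3 with normexp that left out detection p-values and had its offset at 50, 2 with only the offset raised to 50 and 2 on the authors' values without background correction. The added probes were the second Aldh1a3 probe and, where 3 were called, Crabp1. It became 0 with no filter on dim probes, 0 by the methods' t-test over 2-fold at an unadjusted p under 0.05 and 0 by that t-test after Benjamini-Hochberg. Against null GFP−, the count of 1 became 2 with a variance trend, 3 with normexp that left out detection p-values and had its offset at 50, 2 on the authors' values, 0 with no filter and 0 by both forms of the t-test. Of the 40 wider pathway genes, the 2 called against het GFP+ (Rbp7 and Rorb) became 4 with detection on at least 2 arrays, 5 by the mean of each gene's probes, 5 with a variance trend, 4 with only the offset raised to 50, 4 with normexp that left out detection p-values and had its offset at 50, 5 on the authors' values, 0 with no filter, 0 by the t-test after adjustment and 1 (Cebpe) unadjusted. The added genes were drawn from Adh1, Bco2, Lpl and Cebpe. Against null GFP−, the 4 called became 3, without Cebpe, under both settings with an offset of 50, and stayed at 4 with a variance trend, with Lpl in place of Cebpe. They became 2 on the authors' values, 0 with no filter, 0 by the t-test after adjustment and 1 (Cebpe) unadjusted. The number of retinoid probes more than 2-fold apart in the het GFP+ and null GFP− libraries stayed at 0 in all 3 alternatives. It could not have risen. Raising the offset or leaving out the background correction narrows ratios, and leaving out the further normalization left the values nearly unchanged. The t-test sets 2 libraries against 1 with 1 degree of freedom, and the fit with no filter tests all 45281 probes. The cause of the other changes was not tested.

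Of 232 tested alternative values over 13 named probes, 0 changed direction, 196 kept their side of the threshold, 15 newly passed and 21 no longer passed. Settings that changed only the filter, the variance model or the test reused the same log2 differences. Settings that changed only the normalization left them nearly unchanged, since the deposited intensities already shared a distribution. The background settings kept the rank order of intensities, so they could not reverse a probe whose groups did not overlap. Of the named probes, only Crabp2 against null GFP− had groups that overlapped. For the others the direction was fixed in advance. The alternatives are therefore not independent checks. Leaving out a null GFP+ library leaves 1 library a group, so no count could be given. Values then ran from -2.4 to -1.89 for the called Aldh1a3 probe, from -3.25 to -1.99 for the other, and from 2.04 to 3.34 for Crabp1, all for null GFP+ minus het GFP+ on the log2 scale. No paired analysis was possible because the labelled groups share only number 3, in 1 null GFP+ and 1 null GFP− library.

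Signal over background limits the dim members, since Crabp1, Crabp2 and 1 Rarb probe were under the limit of 154 in at least 1 group, and the 7 untested probes were under it in every library.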
